A study of Mus musculus with 20 samples.

Results

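The genes described here are Atp6v0e2, Ubb, Myh11, Ifitm1 and Alpk2, 5 of the 24862 gene rows counted in each RNA-seq table of mouse TH17 cells. They were chosen because they had the smallest p-values among 13428 tested genes when miR-21 knockout cells were compared with control cells. Their values in that comparison are therefore given as a description, with no test. Tests are given for the other 2 comparisons of the study, whose libraries played no part in the choice.

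TH17 cells are CD4 T helper cells that make interleukin-17. All samples were C57BL/6, and each of 6 RNA groups had 2 libraries, 12 in all. The knockout group came from naive CD4+ T cells of miR-21-/- mice and its control group from control mice, both differentiated in TH17(23) conditions, in which IL-6, IL-23 and IL-1β were each added at 20 ng/ml. The Ad-c-Rel group overexpressed the NF-κB subunit c-Rel and the Ad-control group was its control, both in TH17(β) cells, for which the growth protocol gives TGF-β1 at 2 ng/ml with IL-6 at 20 ng/ml. The cultures were stimulated through CD3 and CD28, with antibodies blocking IL-4 and IFN-γ. The remaining groups were GFP+ TH17 cells sorted from the central nervous system (CNS) or the ileum, 50000 cells for a preparation. The labels give no age and describe neither the knockout allele nor the GFP reporter. They do not tie the replicates to different mice or wells, so every p-value reflects only how these particular libraries vary, possibly for technical reasons. The miR-21 libraries were made with a stranded total RNA kit and the sorted libraries with a low-input kit, so a level in one experiment and a level in another cannot be told apart from the kit and culture that came with it. The 8 ATAC-seq samples were not analysed here.

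A microRNA is a short RNA that pairs through its seed, bases 2 to 8, with messenger RNAs and lowers their stability or translation. The 5 genes belong to unrelated protein families. Atp6v0e2 encodes a small subunit of the membrane part of the V-ATPase, the proton pump of lysosomes and other acidic compartments. Ubb encodes a chain of fused ubiquitin units, one of the cell's sources of the tag that marks proteins for the proteasome, and is known as a stress-responsive gene. Myh11 encodes the smooth muscle myosin heavy chain, Ifitm1 a member of the interferon-induced transmembrane proteins that restrict virus entry, and Alpk2 an alpha kinase, a class of kinases unlike the conventional ones in sequence.

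The knocked-out RNA has 2 mature arms in RefSeq (GRCm38.p6), both read from the minus strand of chromosome 11. They are shown because they are what the knockout cells lack, with the seed in capitals. The seeds of the arms differ.
mmu-miR-21a-5p: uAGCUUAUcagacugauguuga
mmu-miR-21a-3p: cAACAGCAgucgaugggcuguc
The precursor gene Mir21a (chr11:86584067-86584158, inside Vmp1) was counted 25 and 20 times in the control libraries and 0 times in either knockout library. The control level was 13.9 times a floor of 3 counts over the knockout group. With counting error in both groups, the lower 95% limit of the fold difference was 10.8. Its counts do not measure the mature arms. Vmp1, the host gene, stood at 182 and 199 CPM in the knockout libraries and at 125 and 108 CPM in the control libraries. CPM, the counts-per-million unit, is a gene's count scaled to the sum of all gene counts of its library.

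Gene counts per library ran from 32766097 to 36711252 in the miR-21 experiment and from 15421743 to 19930807 in the others. In the knockout comparison edgeR's quasi-likelihood test, with no term for the replicate number (no replicate block), called 0 of 13428 genes. The threshold was an adjusted p of 0.05, and the share was 0% in each direction. Nothing is thus read from a count of 0 by that test for any gene list in this comparison. At an unadjusted p under 0.05 that test found 2821 genes, 1289 higher and 1532 lower, and DESeq2 called 325 higher and 468 lower. The 2 knockout libraries did not overlap the 2 control libraries for 23.7% of tested genes on the higher side and 30.6% on the lower side. T cell identity genes (Cd3e, Cd4, Lck and others) summed to 3280 to 3501 CPM in the knockout libraries and to 3820 to 3822 CPM in the control libraries. The 12 defining TH17 genes (Il17a, Il17f, Il22 and others) summed to 1202 to 2025 CPM in the knockout and 3159 to 4331 CPM in the control. Reads outside annotated genes made up 21.96% and 24.1% in the knockout libraries, against 20.4% and 18.8% in the controls. The part of these differences in the values of the 5 genes was not tested, and in bulk samples fewer cells of a type and less RNA per cell cannot be told apart.

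All 5 genes passed the filter on low counts in the knockout comparison, and for none did the knockout and control libraries overlap. Ubb was higher in the knockout, and Atp6v0e2, Myh11, Ifitm1 and Alpk2 were lower. The choice of the genes fixes these separations, so nothing is read from their count beside the 23.7% and 30.6% above. A log2 difference at least as large as that of Atp6v0e2 was reached by 0.0223% of tested genes. The share was 0.901% for Myh11, 1.93% for Ubb, 2.08% for Ifitm1 and 3.41% for Alpk2. The sizes come from the fit that chose the genes, so these shares are a description too. The fifth gene by p was Ifitm1. The next one, Tec, a T cell kinase that was not chosen, stood at 21.5 and 20.9 CPM in the knockout and 59.3 and 64.8 CPM in the control, a log2 difference of -1.48.

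**Figure D1:**
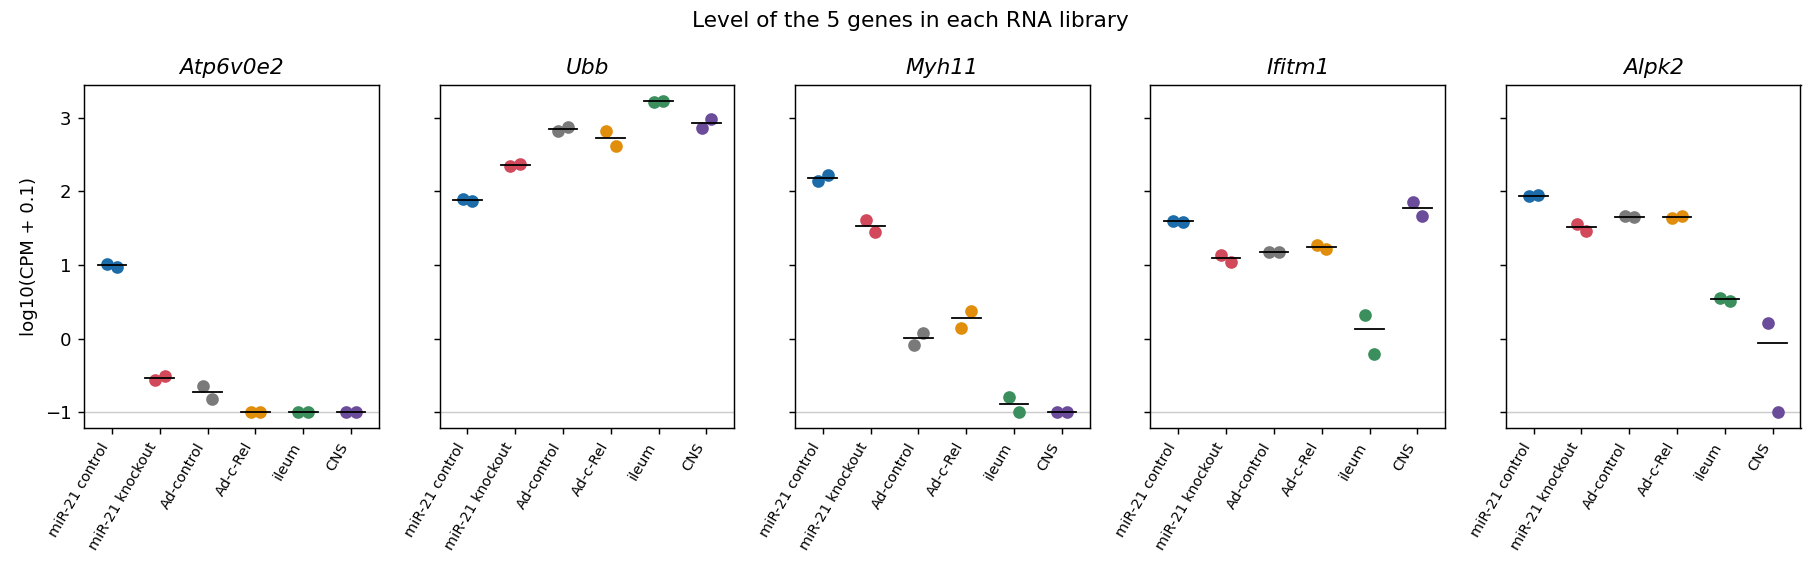
Level of each gene in the 12 libraries, as log10(CPM + 0.1), by group. Points are libraries, black lines the level of the group mean CPM, and the grey line marks a count of 0. In the knockout group Ubb lies above its control and the other 4 genes below it. Outside the miR-21 experiment Atp6v0e2 is near 0, and Myh11 is low in the Ad groups and near 0 in ileum and CNS.

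Atp6v0e2 (chromosome 6, 48537569 to 48541801, GRCm38.p6) stood at 10.3 and 9.42 CPM in the control libraries, from 376 and 346 counts. In the knockout libraries it stood at 0.172 and 0.214 CPM, from 6 and 7 counts. The control level was thus 51.3 times the knockout level, a description of the values that chose the gene. The fitted log2 difference was -5.59. Both control libraries were high and both knockout libraries were close to the detection limit.

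Outside the miR-21 experiment Atp6v0e2 was all but undetected. It had 2 and 1 counts in the Ad-control libraries (0.130 and 0.0502 CPM) and 0 counts in the Ad-c-Rel, ileum and CNS libraries. A count of 0 over the libraries of a group allows up to 0.0882 CPM in Ad-c-Rel, 0.0901 CPM in ileum and 0.0832 CPM in CNS. The gene failed the filter on low counts in both of the other comparisons and was not tested there. Its order of levels was control, then knockout, then Ad-control, with no overlap between neighbours, and the last 3 groups were level at 0.

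Of the other V-ATPase genes 19 were tested in the knockout comparison. EdgeR without a replicate block and DESeq2 each called 0. Of the 19, 1 higher and 1 lower had p under 0.05 before adjustment, beside 1289 and 1532 of all 13428 tested genes. Log2 differences of the list ran from -0.42 to 0.57, and its median was -0.02, the same as the median of all 13428 genes. Those with the smallest p were Tcirg1, a large membrane-part subunit, at 98.8 and 102.4 CPM against 70.5 and 71.7 CPM (log2 difference 0.57), and Atp6v0a1, another large subunit, at 18.4 and 14.01 CPM against 22.7 and 22.4 CPM (-0.42). The paralog of Atp6v0e2, Atp6v0e, stood at 81.1 and 80.7 CPM in the knockout and 76.5 and 75.0 CPM in the control. It was detected in every group, at 243 to 340.2 CPM outside the miR-21 experiment.

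In Ad-c-Rel against Ad-control, 3 of 18 tested V-ATPase genes rose by edgeR's quasi-likelihood test with Benjamini-Hochberg adjustment, beside 8.16% of all 11711 genes, and 0 fell, beside 6.12%. They were Atp6v1a, a catalytic subunit (log2 fold change 0.32, adjusted p = 0.0101), Atp6v0b, a proteolipid (0.25, adjusted p = 0.0315), and the accessory Atp6ap1 (0.25, adjusted p = 0.0293). The median of the list was 0.07, against -0.01 over all genes. None of the list was called when replicate 1 of Ad-control or replicate 2 of Ad-c-Rel was left out. Atp6v0b was also lost without Ad-c-Rel replicate 1, and Atp6ap1 without any one of the 4 libraries. In CNS against ileum, 4 of 19 rose, beside 4% of all 12038 genes, and 1 fell, beside 5.66%. Atp6v0b (1.23, edgeR adjusted p = 0.0130), Tcirg1 (1.21, 0.0352), Atp6v1c1 (1.14, 0.0298) and Atp6ap1 (0.74, 0.0387) were higher in CNS, and Atp6v1h (-1.46, 0.0247) was lower. Atp6v0b kept its call when single libraries were left out. Atp6ap1 lost it without any one of the 4, Tcirg1 and Atp6v1h without CNS replicate 2 or ileum replicate 2, and Atp6v1c1 without either of those or ileum replicate 1. Scaling to T cell identity genes ended the call of Atp6v1h (-0.99, edgeR adjusted p = 0.0784). Myeloid markers, which summed to 17319 to 17530 CPM in CNS and 2171 to 2327 CPM in ileum, moved with these values, and their part was not tested.

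**Figure D2:**
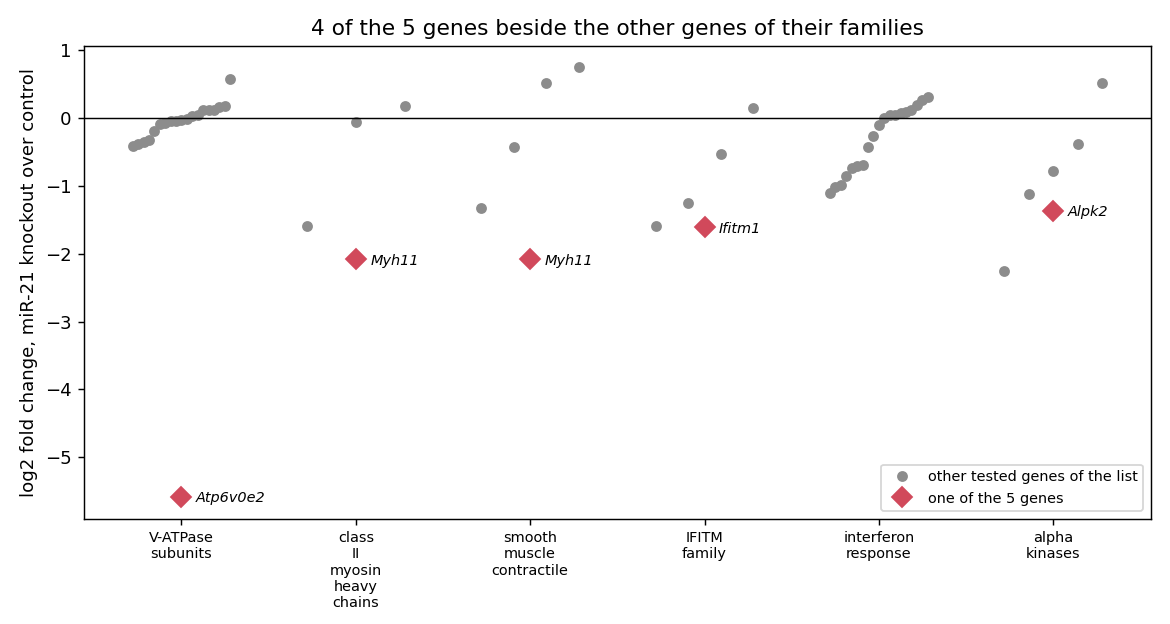
Fitted log2 fold change of the knockout over the control for 4 of the 5 genes (diamonds, no test) and for other tested genes (grey dots). The grey dots are genes of the lists these 4 belong to and of the interferon response list, which holds none of the 5. Atp6v0e2 and Myh11 lie outside the range of their lists, Ifitm1 just under the lowest of its list and Alpk2 inside its list.

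Ubb (chromosome 11, 62551171 to 62553213) was the one gene of the 5 that was higher in the knockout. It stood at 223 and 234 CPM there and at 78.9 and 73.5 CPM in the control, a fitted log2 difference of 1.66. The means were 228.6 ± 7.50 and 76.2 ± 3.83 CPM (SD, n = 2). Ubb lies 24.0 Mb from Mir21a on the same chromosome.

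The miR-21 experiment held the lowest Ubb levels of the study. Ubb stood at 1638 and 1724 CPM in ileum, 724 and 964 CPM in CNS, 664 and 759 CPM in Ad-control and 659.9 and 419 CPM in Ad-c-Rel. The groups ran from ileum through CNS, Ad-control, Ad-c-Rel and knockout to control. CNS and Ad-control overlapped, and the other neighbours in that order did not, although Ad-c-Rel replicate 1 lay just under the lower Ad-control library.

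In CNS against ileum Ubb fell, with a log2 fold change of -1.19 (SE 0.171, edgeR adjusted p = 0.0150). It stayed called under every alternative run, with log2 values from -1.47 to -0.72. The smallest of these came from scaling the libraries to T cell identity genes. In Ad-c-Rel against Ad-control the log2 fold change of Ubb was -0.34 (SE 0.142, edgeR adjusted p = 0.124). Ubb thus did not pass in the main fit, which had the low-count filter and no replicate block. It was called with no filter (-0.36, edgeR adjusted p = 7.12e-05) and with the block (-0.37, edgeR adjusted p = 4.40e-07). The 2 Ad-c-Rel libraries disagreed about Ubb: without replicate 1 the log2 fold change was -0.70 (edgeR adjusted p = 2.74e-07, the spread coming from the Ad-control pair alone), and over the 4 single-library omissions it ran from -0.70 to -0.06.

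Rps27a, which fuses ubiquitin to a ribosomal protein, stood at 1345 and 1512 CPM in the knockout and at 1125 and 1154 CPM in the control (log2 difference 0.40). The libraries did not overlap, and neither edgeR without a replicate block nor DESeq2 called it. Ubb is made of near-identical ubiquitin repeats. Reads with several alignments are listed at 0 for the miR-21 experiment but at 2.25% to 3.52% elsewhere. Reads shared by such copies may thus have been assigned differently between experiments, and the level of Ubb is uncertain to that extent.

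The 20S proteasome is the chamber that degrades ubiquitin-tagged proteins. Of its 14 genes, edgeR without a replicate block and DESeq2 each called 0 in the knockout comparison. At an unadjusted p under 0.05 there were 4, all lower, beside 1532 lower of all 13428 tested genes. The median of the 14 was -0.25, 12 lay below 0 and 11 lay lower without overlap, beside 30.6% of all tested genes. Those of smallest p were Psma6 (-0.45) and Psma5 (-0.38). Of 8 genes that activate or recycle ubiquitin, 0 were called by either tool and 0 had an unadjusted p under 0.05, with a median of -0.15.

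Myh11 (chromosome 16, 14194527 to 14292188) stood at 40.3 and 28.4 CPM in the knockout libraries and at 137 and 165 CPM in the control libraries. The means were 34.4 ± 8.43 and 151 ± 19.7 CPM (SD, n = 2), a 4.39-fold difference and -2.08 on the fitted log2 scale. Both knockout libraries were low and both control libraries high, a separation that the choice of the gene fixes.

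Outside the miR-21 experiment Myh11 was low in the Ad groups and at or near the detection limit in ileum and CNS. It stood at 0.713 and 1.10 CPM in Ad-control, 1.31 and 2.25 CPM in Ad-c-Rel, 1 count in 1 ileum library and 0 counts elsewhere in ileum and CNS. In Ad-c-Rel against Ad-control it had a log2 fold change of 0.98 (SE 0.409, edgeR adjusted p = 0.125) and did not pass the test. That value rests on 60 counts against 33. Between CNS and ileum it failed the filter and was not tested.

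Most other smooth muscle genes were at or near 0 in the libraries in which Myh11 was high. Of 11 such genes, 4 were tested in the knockout comparison and edgeR called 0, with a median of 0.05. At an unadjusted p under 0.05 there was 1, lower, beside 1532 lower of all 13428 tested genes. DESeq2 called 1 lower, beside 468 over all genes. Mylk, the myosin light chain kinase, stood at 10.3 and 13.98 CPM in the knockout and 32.5 and 32.2 CPM in the control (log2 difference -1.33, edgeR adjusted p = 0.125). Smtn, a cytoskeletal gene, lay higher in the knockout, with 31.5 and 46.2 CPM against 29.2 and 28.3 CPM (0.52). Acta2, the smooth muscle actin, was at 0.0545 to 0.259 CPM in these 4 libraries. Cnn1 was at 0.0545 to 0.122 CPM and Tagln at 0.58 to 1.51 CPM. Lmod1 and Myocd, the latter the master coactivator of the smooth muscle program, had 0 counts in all 4.

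**Figure D3:**
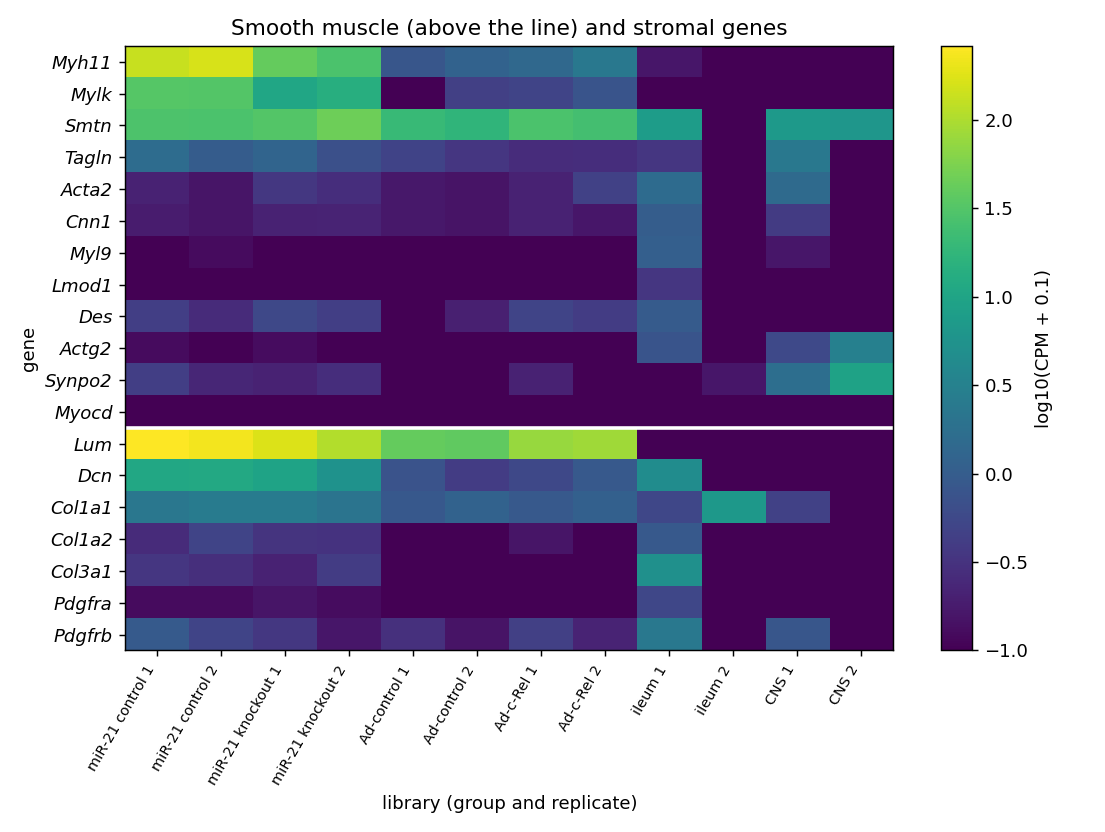
Level of smooth muscle genes (above the white line) and of stromal genes (below it) in each of the 12 libraries, as log10(CPM + 0.1). Myh11 and Mylk are bright in the 4 miR-21 libraries, Lum in those and in the Ad libraries, and the other contractile genes except Smtn are dark in them.

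Of the 7 stromal markers 4 were under 1 CPM in both libraries of each miR-21 group. Their sum was 115 to 184 CPM in the knockout and 245 to 277 CPM in the control, nearly all of it Lum, a matrix proteoglycan, at 171 and 107 CPM against 262 and 229.7 CPM. The part of these in the Myh11 difference was not tested. Among the other myosin heavy chains, the nonmuscle Myh9 stood at 806 and 876 CPM in the knockout and 760.4 and 800.3 CPM in the control. Nonmuscle Myh10 stood at 46.6 and 42.2 CPM against 51.2 and 45.7 CPM. Myh14 had 1 count against 4, and the embryonic Myh3 was at 0.46 and 0.366 CPM against 1.43 and 1.20 CPM (log2 difference -1.60, edgeR adjusted p = 0.135). None of the 3 tested was called by edgeR or DESeq2. At an unadjusted p under 0.05 there was 1, lower, beside 1532 lower of all 13428 tested genes.

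In Ad-c-Rel, where Myh11 did not pass, Smtn rose (0.56, edgeR adjusted p = 0.00468) and so did Myh10 (0.90, edgeR adjusted p = 0.0415). Smtn was lost without Ad-control replicate 2, and Myh10 without any one of the 4 libraries and with DESeq2 (adjusted p = 0.240). The stromal sum there was 79.2 to 86.1 CPM against 39.9 to 42.3 CPM, with Lum at 77.5 and 84.2 CPM against 40.7 and 38.5 CPM. Col3a1 and Pdgfra had 0 counts in both groups. Mast cell and basophil markers summed to 53.7 to 54.0 CPM in Ad-c-Rel and 15.1 to 17.2 CPM in Ad-control, with 4 of 5 tested called higher by edgeR, beside 8.16% of all tested genes, and none of the 6 at 0. The part of these cells in the values of Myh11 and its relatives was not tested.

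Ifitm1 (chromosome 7, 140967429 to 140969827) stood at 13.8 and 10.8 CPM in the knockout and at 39.6 and 38.5 CPM in the control. The means were 12.3 ± 2.15 and 39.1 ± 0.798 CPM (SD, n = 2), a 3.18-fold difference and -1.61 on the fitted log2 scale. Again the knockout libraries were the low pair by choice of the gene.

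Across the study Ifitm1 was highest in CNS, at 71.3 and 46.6 CPM, and lowest in ileum, at 1.97 and 0.528 CPM. The other cultures lay between, with 18.5 and 16.5 CPM in Ad-c-Rel and 14.8 CPM in each Ad-control library. The order was CNS, control, Ad-c-Rel, Ad-control, knockout and ileum, with no overlap between neighbours.

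Ifitm1 was higher in CNS than in ileum, with a log2 fold change of 5.34 (SE 0.814, edgeR adjusted p = 0.0178). Leaving out single libraries moved it between 4.67 and 6.61, with adjusted p up to 0.0467. In the same comparison all 10 myeloid markers (Lyz2, C1qa and others) rose. They summed to 17319 to 17530 CPM in CNS and 2171 to 2327 CPM in ileum, with none of the 10 at 0. B and plasma cell markers summed to 1.66 to 10.6 CPM in CNS and 3478 to 3534 CPM in ileum. Xist, which is expressed in female cells, stood at 0.119 and 0.0520 CPM in CNS and 375 and 394 CPM in ileum. The part of these cells in the differences of Ifitm1, its paralogs and Ubb was not tested, and the sex of the animals and the tissue cannot be told apart. In Ad-c-Rel against Ad-control the log2 fold change of Ifitm1 was 0.30 (SE 0.124, edgeR adjusted p = 0.118), short of the threshold. In all, 0 of the 4 genes tested in that comparison were called by edgeR in the main fit, beside 8.16% of all tested genes higher and 6.12% lower. Of the same 4, 2 lay higher without overlap, beside 21.4% of all tested genes, and 1 lower, beside 37.3%. In CNS against ileum 2 of the 3 tested genes were called, 1 higher, beside 4% of all tested genes, and 1 lower, beside 5.66%. There 1 lay higher without overlap, beside 38.9% of all tested genes, and 2 lower, beside 21.6%.

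**Figure D4:**
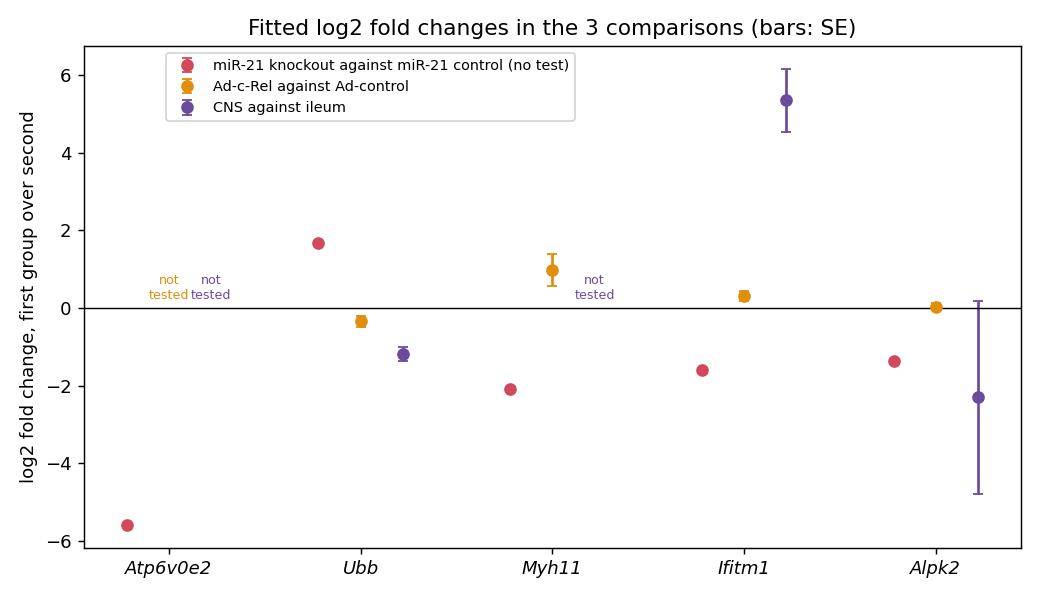
Fitted log2 fold changes of the 5 genes in the 3 comparisons, with SE bars for those that were tested. The knockout values carry no bar because the genes were chosen on them. Ifitm1 is at 5.34 and Ubb at -1.19 in CNS against ileum, and the Ad-c-Rel values lie between -0.34 and 0.98.

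The genes on either side of Ifitm1 are its paralogs Ifitm2 and Ifitm3, and both were also lower in the knockout libraries without overlap. Ifitm2 stood at 85.9 and 78.2 CPM against 127 and 122 CPM (log2 difference -0.53, edgeR adjusted p = 0.131). Ifitm3 stood at 3.99 and 4.58 CPM against 9.84 and 11.7 CPM (-1.26, edgeR adjusted p = 0.129). Ifitm5, which lies beyond Ifitm2, went the other way at a low level and overlapped between groups. It stood at 0.690 and 0.977 CPM in the knockout against 0.769 and 0.817 CPM in the control (0.15). Ifitm7, which lies on chromosome 16 near Myh11, stood at 0.402 and 0.214 CPM against 1.13 and 0.817 CPM (-1.59). Of 4 other IFITM genes tested, edgeR without a replicate block called 0, DESeq2 called 1 lower and 3 were lower at an unadjusted p under 0.05. Over all genes DESeq2 called 468 lower, and 1532 of 13428 tested genes were lower at that unadjusted p. Of the 4 IFITM genes, 3 lay lower without overlap, beside 30.6% of all tested genes, and the median was -0.89, against -0.02 over all genes. Ifitm6 was under 0.25 CPM in these libraries.

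In CNS against ileum Ifitm3 rose with Ifitm1, at 399 and 322 CPM against 23.7 and 37.6 CPM (3.36, edgeR adjusted p = 0.00303). Ifitm2 rose by less (1.06, edgeR adjusted p = 0.0311), a call lost when any of CNS replicate 1, CNS replicate 2 or ileum replicate 2 was left out. Ifitm6 stood at 5.77 and 2.70 CPM against 0.554 and 4.69 CPM, which overlap. In Ad-c-Rel, Ifitm2 rose (0.32, edgeR adjusted p = 0.00990), though not without Ad-c-Rel replicate 1, and Ifitm3 did not pass (0.41, adjusted p = 0.332).

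Of the 5 genes, 3 had an entry in the RefSeq promoter table. The promoters of Ifitm2, Ifitm1 and Ifitm3 are shown, 250 bases before to 50 after the start (GRCm38.p6). These 3 genes lay lower in the knockout, while Ifitm5, beyond Ifitm2, overlapped between groups (0.15). Capitals mark matches on either strand to GAAA, any 2 bases and GAAA, the core of the interferon-stimulated response element. This motif is found in 3.44% of 32851 promoters of 300 bases.
Ifitm2, chr7:140955912-140956211, minus strand: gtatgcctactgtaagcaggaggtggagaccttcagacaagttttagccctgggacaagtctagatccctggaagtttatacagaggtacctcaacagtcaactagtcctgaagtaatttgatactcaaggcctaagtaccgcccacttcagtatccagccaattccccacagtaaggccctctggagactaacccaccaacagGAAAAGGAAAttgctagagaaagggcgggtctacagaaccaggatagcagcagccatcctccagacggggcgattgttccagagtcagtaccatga
Ifitm1, chr7:140967826-140968125, plus strand: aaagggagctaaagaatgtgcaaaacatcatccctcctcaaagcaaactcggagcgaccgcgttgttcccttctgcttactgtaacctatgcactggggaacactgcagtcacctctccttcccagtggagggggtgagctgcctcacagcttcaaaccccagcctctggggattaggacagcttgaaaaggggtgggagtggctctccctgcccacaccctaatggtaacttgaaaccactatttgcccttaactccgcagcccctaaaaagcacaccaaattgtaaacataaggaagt
Ifitm3, chr7:141010695-141010994, minus strand: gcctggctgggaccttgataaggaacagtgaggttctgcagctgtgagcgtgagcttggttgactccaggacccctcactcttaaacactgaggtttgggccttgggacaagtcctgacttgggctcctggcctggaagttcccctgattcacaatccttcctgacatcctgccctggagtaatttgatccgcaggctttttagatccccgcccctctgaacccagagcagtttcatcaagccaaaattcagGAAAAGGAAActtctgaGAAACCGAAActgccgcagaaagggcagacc
Ifitm2 holds 1 match, beginning at base -46 from the start site, and Ifitm3 holds 2, beginning at bases 2 and 19. Ifitm1 holds 0 in this window. The Ifitm1 window lies wholly inside the RefSeq span of its gene (140967429 to 140969827). The Ifitm2 window likewise lies inside its span (140954837 to 140959686), and only the Ifitm3 window reaches past the end of its gene. The outer ends of Ifitm1 and Ifitm2 were not searched.

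Interferon response genes lay on both sides of 0 in the knockout comparison. Of 19 tested, edgeR called 0, DESeq2 called 1 lower and 2 were lower at an unadjusted p under 0.05. Over all genes DESeq2 called 468 lower, and 1532 of 13428 tested genes were lower at that unadjusted p. Of the 19, 8 lay above 0 and 11 below, and the median was -0.11. It was -0.87 without knockout replicate 1 and 0.09 without knockout replicate 2. Gbp2, an interferon-induced GTPase, stood at 159 and 150.4 CPM against 257 and 280.1 CPM (-0.73, edgeR adjusted p = 0.125). In CNS against ileum 4 of 19 rose, beside 4% of all genes, and 0 fell, beside 5.66%, with a median of 1.16 against 0.08 over all genes. Among them were Gbp2 (3.16, edgeR adjusted p = 0.00132), Bst2 (1.76, 0.0227) and Zbp1 (1.83, 0.0256), the last of which was lost without CNS replicate 1 or ileum replicate 2. The same myeloid markers, all 10 of them higher in CNS (17319 to 17530 CPM against 2171 to 2327 CPM), moved with these genes too, and their part was not tested. In Ad-c-Rel, 1 of 11 rose, beside 8.16% of all genes, and 2 fell, beside 6.12%. Ifit1 rose (3.15, edgeR adjusted p = 9.35e-05), and Irf9 was among those that fell (-0.35, 0.0134). Irf9 was lost when replicate 1 of Ad-control or replicate 2 of Ad-c-Rel was left out.

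Alpk2 (chromosome 18, 65265529 to 65393888) stood at 36.1 and 29.4 CPM in the knockout and at 86.6 and 89.0 CPM in the control. The means were 32.7 ± 4.78 and 87.8 ± 1.71 CPM (SD, n = 2), a 2.68-fold difference and -1.36 on the fitted log2 scale. Here too the groups lay apart because the gene was chosen on them. Alpk2 overlaps the RefSeq entry Gm41757, and the strand setting of the counting is not given in the sources used here, so reads of the pair cannot be told apart if strand was ignored.

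Alpk2 was steady in the other cultures, at 45.8 and 45.1 CPM in Ad-control and 42.9 and 45.95 CPM in Ad-c-Rel. In sorted cells it was low, at 3.45 and 3.17 CPM in ileum and 1.55 and 0 CPM in CNS. The order was control, Ad-control, Ad-c-Rel, knockout, ileum and CNS, and only Ad-control and Ad-c-Rel overlapped. The log2 fold change of Alpk2 was 0.03 in Ad-c-Rel (SE 0.0933, edgeR adjusted p = 0.894) and -2.30 in CNS (SE 2.48, edgeR adjusted p = 0.658), neither past the threshold. The CNS value rests on 26 counts, all in replicate 1. It was -1.35 without CNS replicate 2 and -8.94 without CNS replicate 1, where the CNS count is 0 and the fitted value depends on the prior count.

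None of the 5 other alpha kinases was called by edgeR without a replicate block or by DESeq2 in the knockout comparison. Before adjustment, p lay under 0.05 for 1 kinase that was higher and for 2 that were lower. Over all 13428 tested genes 1289 higher and 1532 lower reached that. The median of the 5 kinases was -0.79, and 4 of the 5 lay lower without overlap, beside 30.6% of all tested genes. Alpk1, a sensor of bacterial sugars, stood at 0.948 and 0.549 CPM against 1.15 and 1.53 CPM (log2 difference -0.79), and Alpk3 at 0.259 and 0.183 CPM against 0.632 and 0.381 CPM (-1.12). The channel kinase Trpm6 stood at 0.316 and 0.0916 CPM against 1.18 and 0.872 CPM (-2.25), while its relative Trpm7, at 167 and 163 CPM against 119.9 and 122 CPM (0.52), lay higher. Trpm6 rose in Ad-c-Rel (0.58, edgeR adjusted p = 0.0387), but only with Ad-c-Rel replicate 1 left out did it stay called among the single-library omissions, and DESeq2 gave an adjusted p of 0.208. Between CNS and ileum edgeR called 0 of 4.

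The 30 genes that flank the 5 were taken as the 3 nearest tested genes on each side. None was called by edgeR without a replicate block in the knockout comparison. That fit called 0 of 13428 genes, so nothing is read from this about the flanking genes. Next to Atp6v0e2, the pseudogene Zfp862-ps stood at 11.3 and 5.31 CPM against 24.4 and 16.3 CPM (-1.24), and the gene on the other side, Lrrc61, overlapped between groups (-0.19). Beside Ubb, Ncor1, a nuclear corepressor, stood at 546 and 650.5 CPM against 378 and 409 CPM (0.68), and 2410006H16Rik at 428 and 651 CPM against 246 and 279 CPM (1.13). Those 2 lay higher like Ubb, but Cenpv (0.10) and Trpv2 (0.28), which are nearer, differed by little. Around Myh11, Nde1 (0.48) lay higher, and Abcc1 (-0.57) and the low-count Ifitm7 (-1.59) lower. Beside Alpk2, Nedd4l overlapped (0.22) and Malt1, a protease of T cell receptor signalling, stood at 946 and 977 CPM against 1155 and 1295 CPM (-0.28).

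**Figure D5:**
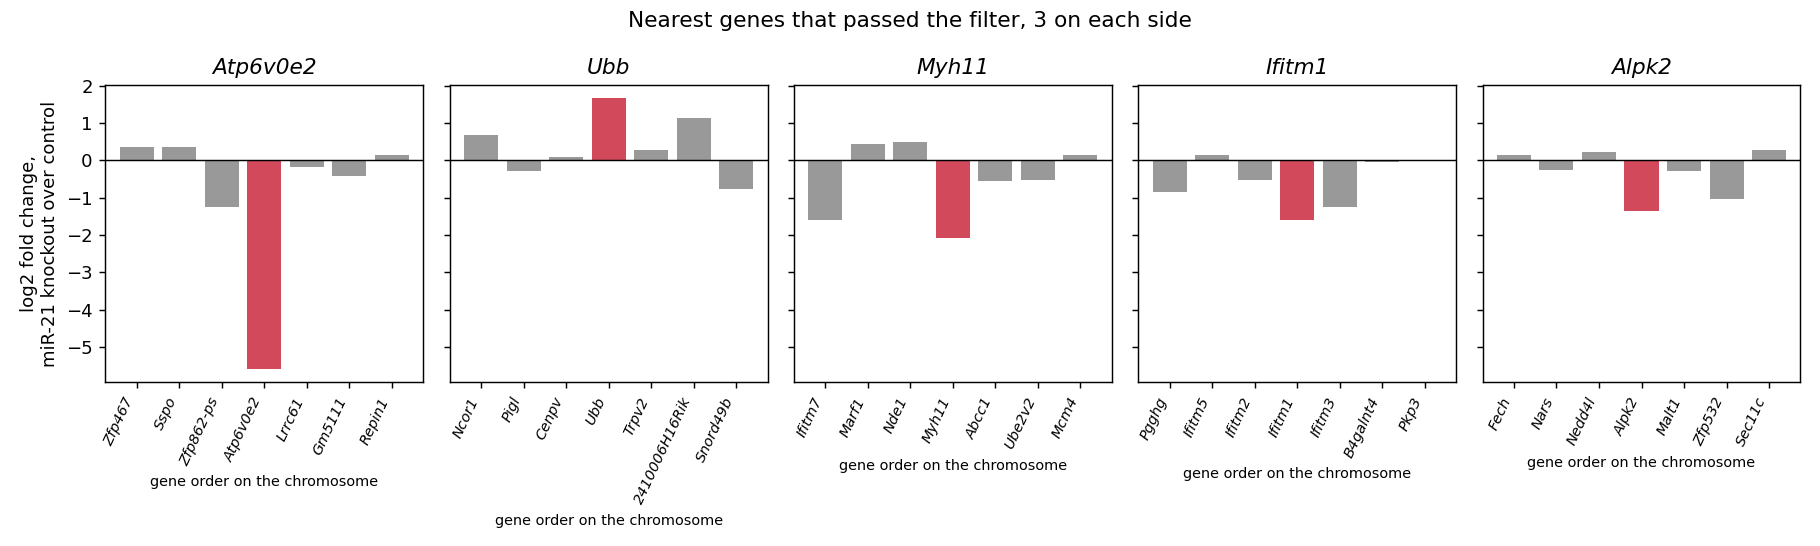
Fitted log2 fold change of the knockout over the control for each of the 5 genes (red) and the 3 nearest tested genes on each side (grey), in chromosome order. No grey bar reaches the red bar of its panel, which the choice of the genes makes likely. At Ifitm1 both adjacent paralogs are below 0.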

How the data were processed

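Per the labels' protocols, RNA was sequenced in paired-end mode. The deposited tables hold the authors' raw read counts for each gene symbol, not normalized. Tools listed in the submitters' processing notes, without roles, include Trim Galore 0.4.4, TopHat2 2.1.0, HTSeq 0.11.0 and DESeq2, with the mm10 build. The annotation is not given in the sources used here. Summary lines that name no gene (14.7% to 26.1% of each table) were left out. Replicates correlated at r = 0.961 to 0.999 on log2(CPM + 1), and a chi-square test on their counts showed more than sampling noise in every pair (4.60 to 67.8 per degree of freedom).

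For each comparison its 4 libraries were fitted in edgeR 4.0.16 (R 4.3.3): filterByExpr, TMM, a two-sided quasi-likelihood F test, and Benjamini-Hochberg adjustment over all tested genes at 0.05. The scripts were tested on simulated counts. Alternatives were DESeq2 1.42.0, other scalings, no filter, a replicate block, a fit over all 12 libraries and omission of each library. An SE is the fitted log2 value divided by the root of F, so it restates the test. Where an omission leaves 1 library in a group, the other pair gives the spread. Floors are 3 counts over a group and cover counting error only.

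The 5 genes and the gene lists were chosen with earlier results of these data known. The text names fixed relatives of the 5, up to 4 called genes per list and comparison or else the 2 of smallest p, flanking genes, the sixth gene by p and the 3 genes of most similar pattern. Smtn, Lum, Xist, Ifitm7, Myh3, Trpm6 and Trpm7 are named as list members after their values were seen. Some list members are not reported here. RefSeq positions (GRCm38.p6, the build also called mm10) were found for 5 of 5 genes.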

Additional observations from a re-analysis of the deposited data

How the results depend on the processing

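Genes called higher and lower in the knockout comparison went from 0 and 0 to 325 and 468 with DESeq2, 9 and 31 with no filter and 2287 and 2520 with the replicate block (which called Rps27a higher and, of 14 20S proteasome genes, 1 higher and 8 lower, of 4 IFITM genes 3 lower, of 5 alpha kinases 1 higher and 2 lower, and of 19 V-ATPase genes 1 higher and 3 lower); a fit over all 12 libraries called 1 lower. Omitting single libraries gave 1 to 666 higher and 1 to 661 lower, the largest counts without knockout replicate 1. There Atp6v0e2 ran from -5.81 to -5.34 and Ubb from 1.55 to 1.79 (log2). For Ad-c-Rel, 956 higher and 717 lower became 637 and 435 with DESeq2, 1488 and 1314 with the block, 18 and 1 over all 12 libraries (where no gene of any family list kept a call), and 537 to 784 and 389 to 597 with single omissions, lowest without Ad-c-Rel replicate 2. Ubb there was called with no filter (-0.36, adjusted p = 7.12e-05), with the block (-0.37, 4.40e-07) and without Ad-c-Rel replicate 1 (omissions -0.70 to -0.0634). Alpk2 changed sign among omissions (-0.0376 to 0.0793); in CNS it was -4.22 with the block, short of the threshold. For CNS, 482 higher and 681 lower became 1211 and 1331 with DESeq2, 1113 and 1300 with no filter, 1988 and 2012 over all 12 libraries, and 319 to 1285 and 531 to 724 with omissions, the most higher without ileum replicate 1. Scaling to T cell identity genes gave 987 and 372, so 72.6% of calls were higher instead of 41.4%, and moved the median of all genes by 0.48 (log2). The causes were not tested. The other 124 values kept their direction and side of the threshold or stayed within the spread or, for gene counts, within a set factor. Among them were 1103 higher and 1062 lower for Ad-c-Rel with no filter. Deviations of same-numbered libraries correlated at 0.659 in the knockout, 0.106 in the Ad and 0.0780 in the tissue comparison, and no label ties the numbers to a shared source. Atp6v0e2 (Ad, CNS) and Myh11 (CNS) had too few counts to be fitted.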

Other observations

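Heat shock genes were read beside Ubb because Ubb is known to respond to the same stress. In the knockout comparison, where Ubb was higher, edgeR called 0 of 12 and DESeq2 called 1, lower. Of the 12, 2 higher and 1 lower had p under 0.05 before adjustment, beside 1289 and 1532 of all 13428 tested genes. The median log2 difference of the 12 was 0.06. Hspa1a stood at 2.90 and 7.23 CPM against 1.18 and 2.45 CPM, and Hsp90aa1 at 444 and 368 CPM against 688 and 675 CPM (-0.69). In Ad-c-Rel, 7 of 12 rose by edgeR, beside 8.16% of all tested genes, and 0 fell, beside 6.12%. The median was 0.35, while Ubb did not pass in the main fit. The inducible Hspa1a (2.06, edgeR adjusted p = 2.99e-07) and Hspa1b (2.20, 3.49e-07) led, followed by Hsph1 (0.61, 0.000215) and Hsp90aa1 (0.35, 0.00475), the last of which was lost without Ad-c-Rel replicate 2. In CNS, 4 of 12 fell by edgeR along with Ubb, beside 5.66% of all tested genes, and 0 rose, beside 4%, with a median of -0.63: Hspa1a (-4.39, edgeR adjusted p = 0.000853), Hspa1b (-5.34, 0.00348), Hsp90aa1 (-1.32, 0.00448) and Dnaja1 (-1.10, 0.0108). Scaling to T cell identity genes left 3 of these calls, Dnaja1 being lost. The part of the myeloid and B cell markers, which also differ between CNS and ileum, was not tested. Hspa1a and Hspa1b are near-identical copies, so their split is uncertain.

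Over the 12 libraries, the genes most like each of the 5 were ranked by Pearson r of log2(CPM + 1) among the 10144 genes averaging 5 CPM or more. The libraries share kit and culture within an experiment, so the coefficients are a description. The miR-21 libraries on which the 5 were chosen are among the 12. Atp6v0e2 was followed by Timm8a1 (0.898), 1700001L05Rik (0.896) and Dock5 (0.895). By rank (Spearman) these coefficients were 0.459, 0.801 and 0.605. Timm8a1 stood at 5.87 to 8.62 CPM outside the miR-21 experiment, where Atp6v0e2 was near 0, so the likeness is partial. Ubb was followed by Hsf1, the heat shock transcription factor (0.978), Gadd45a (0.971) and Jpt1 (0.960). Myh11 was followed by Mylk (0.992), Atp7b (0.991) and Gm19723 (0.984), each under 2.5 CPM outside the miR-21 experiment. Ifitm1 was followed by Ptgr1 (0.980), Aifm1 (0.966) and Arhgap5 (0.954). Alpk2 was followed by Il12rb2, an interleukin-12 receptor chain (0.986), Kcnq5 (0.984) and Plod2 (0.977).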
